A study of Mus musculus with 4 samples.

Results

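The cells described here are macrophages of MC38 tumours in the liver that carried much MHC class II RNA, together with the chemokine transcript Cxcl9 in a minority of them. They were chosen by their own measured transcripts. A member had at least 300 detected genes and under 15% mitochondrial unique molecular identifiers (UMIs, 1 per captured RNA molecule). The complement C1q genes C1qa, C1qb and C1qc made up at least 1% of its UMIs, and the MHC class II genes H2-Ab1, H2-Aa and H2-Eb1 at least 0.8%. It held at most 1 UMI of Cd3d, Cd3e and Cd3g together, at most 1 of Lyve1 and Cd163 together, and under 3 each of Jaml, of Clec4f and of Mki67 plus Top2a. The gate found 2814 cells, among 21683 macrophages past the C1q threshold and 42617 cells past the quality filters of 50062 barcodes. The libraries LFD_WT, LFD_shYap, HFD_WT and HFD_shYap held 395, 341, 1538 and 540 of them, and 4 values in a row keep this order of libraries throughout.

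MC38 is a mouse colon carcinoma line. Its tumours had grown in the liver of C57BL/6J mice, were cut away from the surrounding liver and dissociated, and the leukocytes were taken on beads that bind CD45, the common leukocyte antigen. LFD and HFD stand for the low-fat and high-fat diet of the host mice, which were WT in every group. WT and shYap name the tumour line, unmodified MC38 or its derivative with a knockdown of Yap, a transcriptional coactivator of the Hippo pathway. There was 1 library for each of the 4 combinations, so no group had a replicate, and the age and number of the mice behind a library are not given in the sources used here. The labels of LFD_shYap conflict: by its title these mice ate the low-fat diet, by its treatment entry the high-fat one. The group was set by the title, and each diet value that includes this library, as well as each tumour line test adjusted for diet, rests on that reading.

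MHC class II molecules present peptides taken up from outside the cell to CD4 T cells. Macrophages raise them under interferon-gamma, through the transactivator encoded by Ciita, and the same cytokine induces Cxcl9, the chemokine that draws T and NK cells bearing the receptor CXCR3. Cd74, the invariant chain, occupies the peptide groove on the way to the endosome, where the H2-DM molecules help peptide to load.

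Promoters of class II genes are shown because class II RNA defines the cells: 2 are of gate genes, and H2-DMb1 is not in the gate. They stand with that of Cxcl9 and of Gbp2, a guanylate-binding protein gene induced by interferon-gamma, for comparison. Each sequence is the 120 bases just before the transcription start in RefSeq (GRCm38.p6), read 5′ to 3′ on the gene's own strand. Capitals mark TGATTGG or its reverse complement, the core of the Y box of class II promoters, and AACTGATGA, part of their X box. In Gbp2 they mark TTTC followed after any 2 bases by TTTC again, the core repeat of interferon-stimulated elements. Both strands were searched and no motif searched overlaps another. H2-Ab1, Cd74 and Ciita had no entry, and H2-DMa, with 2 entries, is not shown.
H2-Eb1: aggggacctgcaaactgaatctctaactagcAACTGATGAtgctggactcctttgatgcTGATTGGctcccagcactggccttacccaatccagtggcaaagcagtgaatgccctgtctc
H2-DMb1: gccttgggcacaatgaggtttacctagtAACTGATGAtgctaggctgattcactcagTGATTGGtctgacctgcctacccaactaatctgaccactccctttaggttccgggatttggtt
H2-Aa: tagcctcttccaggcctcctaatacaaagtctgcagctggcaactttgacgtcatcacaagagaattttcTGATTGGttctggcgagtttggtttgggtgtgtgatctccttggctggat
Cxcl9: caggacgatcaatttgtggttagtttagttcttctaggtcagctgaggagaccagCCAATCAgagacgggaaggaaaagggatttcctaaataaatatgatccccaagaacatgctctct
Gbp2: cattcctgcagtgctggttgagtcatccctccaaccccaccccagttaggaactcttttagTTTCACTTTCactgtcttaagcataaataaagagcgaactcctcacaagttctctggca

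H2-Ab1, H2-Aa and H2-Eb1 lie in the MHC locus, on chromosome 17 at 34257689 to 34269419, 34282744 to 34287823 and 34305867 to 34316674 (GENCODE vM21, GRCm38), Cxcl9 on chromosome 5 at 92321347 to 92328079 and Cd72 on chromosome 4 at 43446462 to 43454628. The windows lie at chr17:34305747-34305866, plus strand, at chr17:34153071-34153190, plus strand, at chr17:34287824-34287943, minus strand, at chr5:92328080-92328199, minus strand and at chr3:142620543-142620662, plus strand. The class II genes H2-Eb1, H2-DMb1 and H2-Aa hold TGATTGG on their own strand, starting 61, 63 and 50 bases before the start, and Cxcl9 holds its reverse complement from 65 bases before. Of 32851 promoters in the table, 5.15% hold this motif within the same 120 bases. AACTGATGA occurs in H2-Eb1 and H2-DMb1, 89 and 92 bases before the start, and in 0.0852% of all promoters. The TTTC repeat begins 59 bases before the start of Gbp2 and occurs in 1.22% of all. A match describes the letters and does not show that a factor binds.

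The median UMI count of a member was 6271, 8296, 9984 and 10862, and their summed UMIs came to 2739545, 3006358, 16774686 and 6489555 in the same order. The HFD_WT values are therefore the most precise. HFD_shYap stood apart. Of its 540 members, 203 had UMIs of Xist and none of Ddx3y, Eif2s3y, Kdm5d and Uty, and 214 the reverse, while no member of the other libraries had an Xist UMI. The members of the other libraries had 213, 219 and 1033 cells with the Y-linked UMIs. HFD_shYap thus holds cells of both sexes. Its Xist cells and Y-linked cells are given apart for several results. The Yap knockdown was in the tumour line, so Yap1 in these leukocytes checks nothing: it had 6 UMIs in all members together. The highest doublet scores fell on 5.06, 4.4, 6.44 and 2.59 percent of members. Each pair of libraries shared 33 to 63 cell barcodes, 1 of them a member in both HFD_WT and HFD_shYap.

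**Figure D1:**
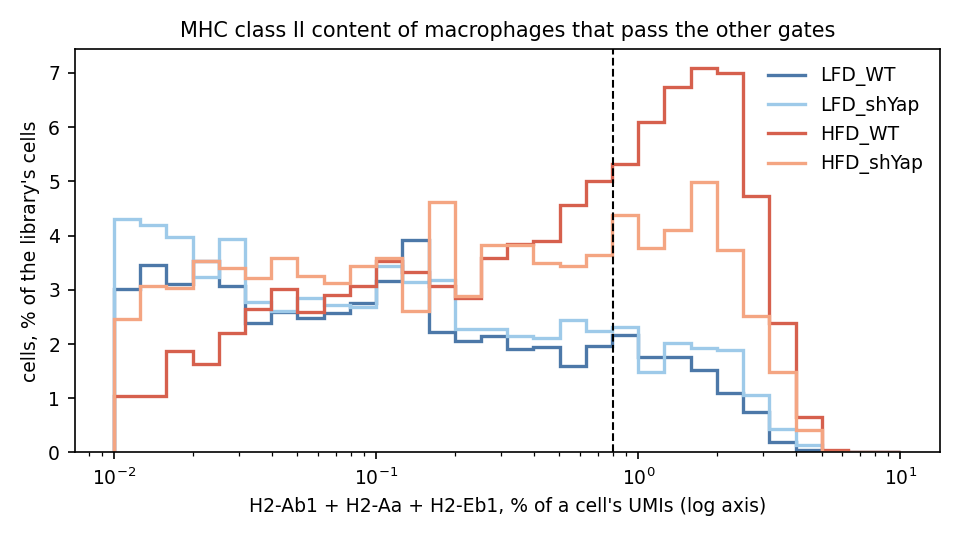
Share of H2-Ab1, H2-Aa and H2-Eb1 among a cell's UMIs (x axis, percent, log axis) in C1q macrophages that passed every other part of the gate, as the percent of such cells of each library (y axis); cells under 0.01% are not drawn. The dashed line is the 0.8% threshold, where no library shows a gap, and HFD_WT and HFD_shYap hold a larger share of cells to its right than LFD_WT and LFD_shYap.

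The class II content of macrophages was a continuum with no gap at the threshold. The median content of a member, in percent of its UMIs, was 1.39, 1.54, 1.68 and 1.63, and the highest came to 5.63%. Members just inside the threshold, with 0.8 to 0.9%, numbered 48, 38, 89 and 55 in LFD_WT, LFD_shYap, HFD_WT and HFD_shYap, and cells just outside, with 0.7 to 0.8%, numbered 46, 39, 104 and 48. Summed Cxcl9 was 81.4, 83.6, 480.2 and 126 CPM (UMIs of the gene per 1000000 UMIs of those cells) inside and 188, 466, 292 and 57.02 outside, with no constant order between the sides. Cxcl9 was higher at the top of the class II range than at its foot: from 89.7 CPM below 0.1% to 1015 above 2.4% in HFD_WT, and from 35.4 to 264 in LFD_WT. The rise was not steady in any library. At 0.4 to 0.8%, 0.8 to 1.2% and 1.2 to 1.6%, LFD_WT had 191, 114 and 89.9 CPM. LFD_shYap had 114, 134 and 79.0 CPM there. Within members of HFD_WT, Cxcl9 was 503 CPM at 0.8 to 1.2% class II.

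Members made up a larger part of the C1q macrophages in the high-fat libraries. LFD_WT had 5.84% (5.3 to 6.43), LFD_shYap 5.69% (5.12 to 6.31), HFD_WT 27.3% (26.1 to 28.4) and HFD_shYap 16.4% (15.2 to 17.7), with exact Clopper-Pearson 95% intervals that cover counting error only. HFD_WT exceeded LFD_WT by 21.4 points (20.1 to 22.7) and HFD_shYap exceeded LFD_shYap by 10.7 points (9.35 to 12.1), with Newcombe intervals. HFD_shYap lay below HFD_WT, by a difference of -10.9 points (-12.6 to -9.11), while LFD_shYap and LFD_WT differed by -0.154 points (-0.963 to 0.661). These shares were not tested. In HFD_shYap the share was 19.5% among macrophages with Xist alone and 14.9% among those with Y-linked UMIs alone, so both lay above either low-fat library. With C1q at 2% or more of UMIs, HFD_shYap minus HFD_WT was 0.726 points (-5.01 to 6.72).

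The gate itself took unequal numbers from the libraries. Among C1q macrophages at 0.8% class II or more, the Jaml limit removed 17, 160, 113 and 118 cells, counted without regard to the other limits. The limit on the cycling genes Mki67 and Top2a removed 27, 26, 288 and 80. Without any of the limits on absolute UMIs, LFD_shYap lay above LFD_WT by 2.32 points (1.38 to 3.27), and the gain of HFD_WT over LFD_WT was 28.4 points (27.03 to 29.8).

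**Figure D2:**
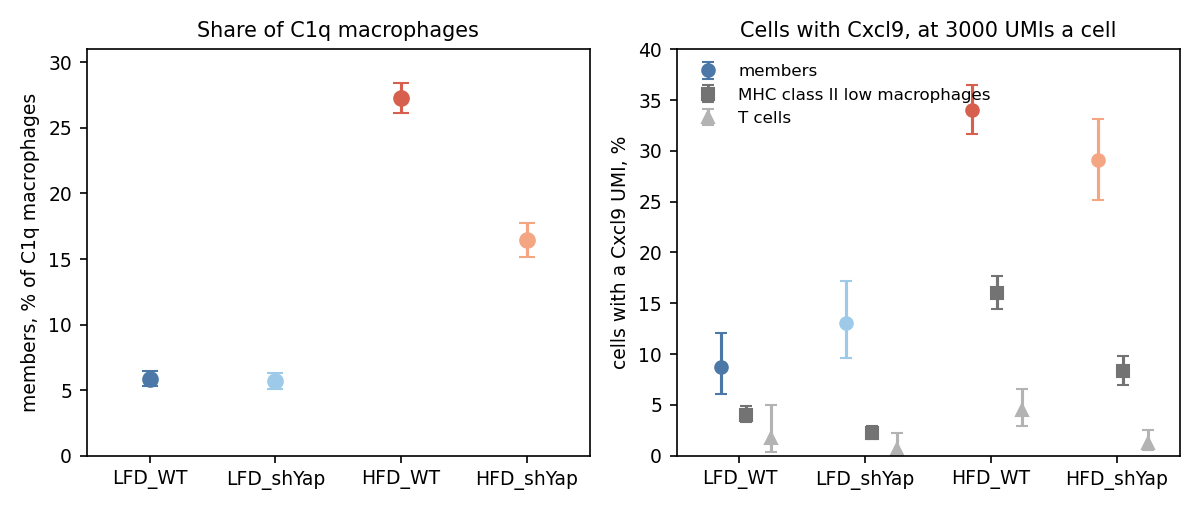
Left, members as percent of C1q macrophages in each library (5.84, 5.69, 27.3 and 16.4%); right, cells with at least 1 Cxcl9 UMI after every cell was thinned to 3000 UMIs, in members (circles), MHC class II low macrophages (squares) and T cells (triangles). Bars are exact 95% binomial intervals, and in each library the members lie highest on the right.

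The members' other markers are those of macrophages. Csf1r, the receptor for the macrophage growth factor, had 719, 716, 634 and 748 CPM, and Adgre1, which encodes F4/80, had 285, 293, 319.8 and 387 CPM. The 10 dendritic cell markers together reached 45.6 to 66.4 CPM in the members against 914 to 1083 CPM in the other class II high cells, those with C1q under 0.1% of UMIs. Most of the former was Batf3 (35.5 to 51.1 CPM), while Flt3, the receptor that marks conventional dendritic cells, had 1.46, 0.665, 0.477 and 0.616 CPM. The 7 T cell markers, all detected, summed to 9.98 to 15.8 CPM, against 1875 to 2468 CPM in T cells. The 5 B cell markers summed to 109 to 135 CPM, of which Ighm gave 69.2 to 98.6, Cd79b most of the rest and Cd79a at most 2.19. This sum was higher than in the other groups in every library. It was 73.6 to 89.4 CPM in macrophages under 0.8% class II that passed the other limits, and 38.3 to 59.0 in T cells. In the class II high cells with little C1q, chosen for few B cell UMIs, it was 29.5 to 47.4. The source of this signal was not tested. Neutrophil markers summed to 126 to 373 CPM and monocyte markers to 510.2 to 765 CPM. Hepatocyte, fibroblast, endothelial, erythrocyte, NK (Ncr1 at 0) and tumour-like lists each stayed at or below 34.6 CPM in every library.

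Cxcl9 was present in a minority of members. Before thinning, 48, 70, 753 and 246 members had a Cxcl9 UMI in LFD_WT, LFD_shYap, HFD_WT and HFD_shYap. With every cell thinned to 3000 UMIs, which left out 27, 11, 42 and 17 shallower members, the percent of members with Cxcl9 was 8.7, 13.03, 34.02 and 29.1. In macrophages that passed the other gates but lay under 0.8% class II it was 4.04, 2.25, 15.98 and 8.31. In T cells, which should lack this transcript and had unthinned medians of 9110, 8889, 7619 and 7710 UMIs, it was 1.74, 0.615, 4.47 and 1.27. The members were above both other groups in every library, and HFD_WT was highest in all 3 groups. The part of free RNA in the diet difference of Cxcl9 was not tested. Cd72, a C-type lectin receptor listed as a marker, had 312, 309, 472 and 369.5 CPM, 1.38- to 1.71-fold higher than in macrophages that passed the other limits but lay under 0.8% class II. It was present at like levels in both, so it marks the members only weakly.

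Against the class II low macrophages of the same library, few genes stood 2-fold apart in all 4 libraries. Of 5272 genes with at least 20 CPM in either gate, 20 were higher (0.379%) and 16 lower (0.303%). The members were defined on these cells, so this is a description with no test. Of the class II list, 7 genes passed the level minimum and 7 were higher, 3 of them through the gate itself. Those not used by the gate were Cd74 (5.14- to 11.4-fold), Ciita (5.24- to 11.7-fold), H2-DMb1 (3.9- to 5.25-fold) and H2-DMa (2.18- to 2.81-fold). So class II genes that the gate did not read were higher together with those it did, in each library.

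Beyond class II, the genes apart were mostly of other kinds. Gbp2b, a guanylate-binding protein, was 6.77- to 22.7-fold higher, Klrb1b, a C-type lectin receptor, 3.37- to 7.05-fold, and Itgax, which encodes the integrin CD11c, 3.09- to 4.37-fold. Cxcl9 was 3.36- to 6.46-fold higher, at 162, 250.1, 675 and 488 CPM in members and 48.4, 38.7, 187 and 92.6 CPM in the class II low cells. Mgl2, a lectin of alternatively activated macrophages and dendritic cells, was 2.73- to 6.33-fold higher, C3 of complement 2.45- to 5.6-fold and the decoy receptor Il1r2 2.44- to 4.51-fold. Lower in members were Marco, a scavenger receptor (3.19- to 18.3-fold lower), Folr2, the folate receptor of resident macrophages (2.79- to 6.48-fold), Ltc4s of leukotriene synthesis (3.06- to 5.96-fold), Fcna, a ficolin (3.04- to 5.58-fold), F13a1 of coagulation (2.36- to 3.99-fold), osteopontin Spp1 (2.27- to 3.65-fold) and the arginase Arg1 (2.06- to 6.6-fold). Of the 11 listed resident macrophage genes, 5 passed the level minimum and 3 were 2-fold lower in all 4 libraries. The gate limits Lyve1, Cd163 and Clec4f in both groups alike.

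Other immune genes were closer between the gates. Of 10 compared costimulatory and checkpoint ligands none was 2-fold apart, although Cd274, which encodes PD-L1, was 1.19- to 1.78-fold and Cd80 1.33- to 2.44-fold higher in members. The inflammatory cytokine gene Il1b, with 1190.3, 658, 1120.0 and 704 CPM, was 1.91- to 2.69-fold higher. None of 10 CCL chemokines was 2-fold apart, and 6 were lower in members in all 4 libraries, as were 2087 of all 5272 genes compared. The macrophage core genes had a median ratio of 0.989, near the 0.937 of all genes compared.

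Against the other class II high cells, those with little C1q, the members differed widely. Of 5383 genes compared, 468 were 2-fold higher in all 4 libraries (8.69%) and 299 lower (5.55%), again without a test. C1q separates these groups by construction. Outside it, the highest ratios were those of the tetraspan gene Ms4a7 (21.5- to 41.8-fold), Col14a1 (17.9- to 43.8-fold), Lilra5 (16.6- to 70.9-fold), Olfml3 (15.9- to 34.4-fold), Adgre1 (15.3- to 26.8-fold) and Tmem119 (14.7- to 31.9-fold). The B cell gene Cd79b was also higher, but the C1q-low cells were chosen for little of it. Lower by the widest margins were the integrin gene Itgae (105- to 308-fold lower), Flt3 (54.4- to 144-fold), the lectin gene Cd209a (52.3- to 93.8-fold), the chemokine Ccl22 (51.7- to 232-fold), the homing receptor Ccr7 (51.00- to 219-fold) and Clec9a (43.5- to 134-fold), which mark dendritic cell subsets, with counts under 3 in members raised to 3. Cxcl9 in these cells was 191, 148, 331 and 218 CPM, above that of the class II low macrophages and, outside LFD_WT, below that of the members. Itgax was lower in members, at 32.9, 14.97, 70.1 and 45.5 CPM against 109.6, 113, 111 and 131 CPM.

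Members that held Cxcl9 also held more of other interferon-gamma targets. At 3000 UMIs a cell, members with a Cxcl9 UMI (32, 43, 509 and 152 in LFD_WT, LFD_shYap, HFD_WT and HFD_shYap) were set against those without, gene by gene. A ratio takes the UMIs of the Cxcl9 cells as they are and raises a count under 3 in the others to 3. Of 6118 genes with at least 100 UMIs in the thinned members, 8 were 2-fold higher in all 4 libraries (0.131%). These were Serpina3g, Gbp2, Gbp5, Iigp1, Gbp2b, Gbp6, Dnase1l3 and Gbp4, and 6 of them belong to the interferon-gamma list, of which 15 genes were measured.

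The ratios in LFD_WT, LFD_shYap, HFD_WT and HFD_shYap were 11.6, 30.7, 6.55 and 10.2 for the serpin gene Serpina3g. For Gbp2, whose product attacks the membranes that enclose intracellular microbes, they were 3.76, 7.63, 4.91 and 3.68. Iigp1, an immunity-related GTPase, had 3.06, 5.51, 3.89 and 3.73. In the low-fat libraries these rest on few molecules: Serpina3g had 11 and 23 UMIs in the Cxcl9 cells of LFD_WT and LFD_shYap. Other genes counted as 2-fold higher had fewer still. Gbp2b had 2 UMIs in LFD_WT, Gbp6 had 2 in LFD_shYap, and Dnase1l3 had 3 and 2 in LFD_WT and LFD_shYap. C3 (1.94 to 5.25) and the T cell attractant Ccl5 (1.93 to 5.49) followed. Cxcl10, the other CXCR3 ligand measured, had ratios of 3.2, 1.78, 4.77 and 3.71, and Cxcl16, the ligand of CXCR6, 1.25, 1.14, 1.14 and 1.18. The peptide transporter Tap1 had 1.26, 1.84, 2.06 and 1.69.

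Class II genes differed less between members with and without Cxcl9. None of the 8 measured was 2-fold higher in all 4 libraries, and 4 were above 1 in all 4, where 9.33% of all genes were. H2-Ab1 had ratios of 1.0, 1.25, 1.08 and 1.24 and C1qa 1.06 to 1.09, but both are gate genes with a floor in every member. Of the 15 interferon-gamma targets 13 were above 1 in all 4 libraries. Of 11 measured type I interferon genes 6 were, and of 13 MHC class I presentation genes 10. Il1b (0.636 to 0.972) and Apoe (0.83 to 0.999) were below 1 in every library. The split rests on 1 transcript of the same cells, so no test was made.

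**Figure D3:**
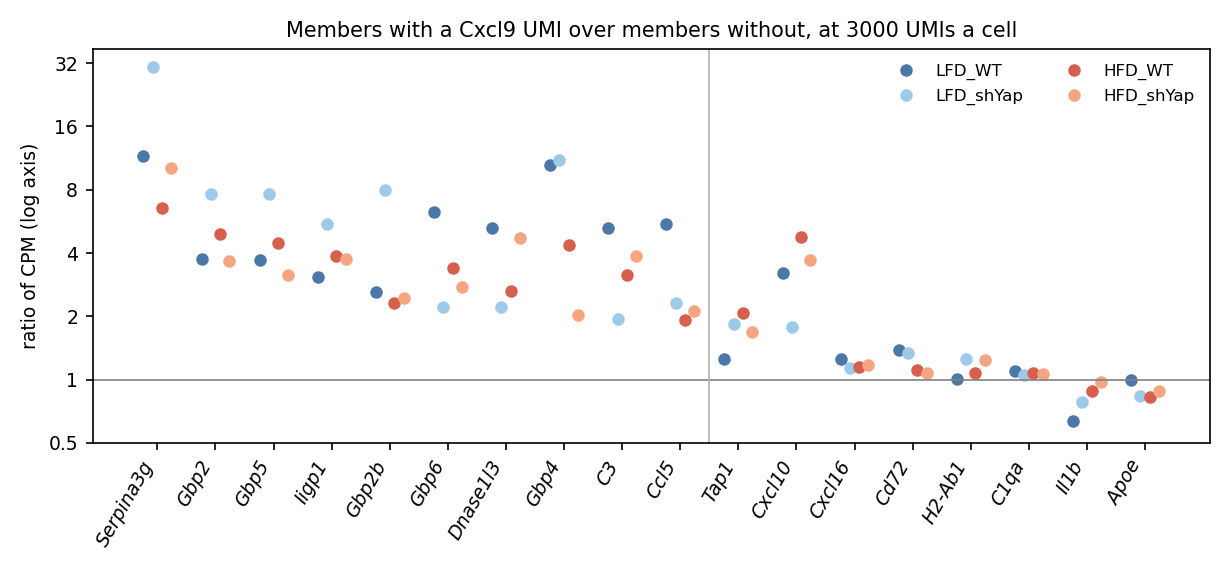
Ratio of CPM in members with a Cxcl9 UMI over members without, at 3000 UMIs a cell (y axis, log axis), for the 10 genes with the highest lowest ratio (left of the line) and 8 others, 1 point a library. Serpina3g ranges from 6.55 to 30.7, while H2-Ab1, C1qa and Apoe lie near 1.

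The design asks what the high-fat diet and the knockdown in the tumour change in the cells around it. Diet was tested in members over both tumour lines with edgeR's quasi-likelihood test on the summed UMIs, which leaves 1 residual degree of freedom. Of 10075 genes tested, 27 rose (0.268%) and 22 fell (0.218%) in the high-fat libraries at an adjusted p under 0.05, and 501 had an unadjusted p under 0.05. Each library is 1 preparation, and the number of mice behind it is not given, so these p-values do not measure a spread between replicates. Their error is how far these libraries depart from added effects of diet and tumour line. That departure may be technical, and an interaction of diet and line counts as error too. The count was sensitive to the tool: DESeq2 called 13 genes, 12 of them shared, and edgeR with RLE size factors 13, all of them shared. With LFD_shYap read as high-fat, 76 genes were called, 23 of them shared. Each call was recomputed under up to 14 alternatives, which changed the tool, scaling, filter, model, gate, depth, diet label or cells of HFD_shYap, or left out 1 library. A fit without 1 library also drops the other factor, since 3 libraries with both leave no residual degree of freedom. In such a fit 1 library stands for a whole group, is assumed to vary like the others and differs from part of them in the dropped factor, so the effects of the library and of the change of model cannot be told apart. Of the 27 genes that rose 9 passed in all 4 of these fits, and of the 22 that fell 5.

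Among secreted and antigen-linked genes, chemokines moved in both directions. Cxcl9 had 162 (148 to 178), 250.1 (233 to 269), 675 (663 to 687) and 488 (472 to 506) CPM, with exact Poisson 95% intervals. Each high-fat library lay above each low-fat one, and Cxcl9 rose (log2 fold change 1.43 ± 0.23 (SE), adjusted p = 0.00497). Ccl5, which attracts T cells, had 91.6, 110.1, 358 and 281 CPM and rose (log2 fold change 1.58 ± 0.20 (SE), adjusted p = 0.000435). Ccl8, a ligand of CCR8 in the mouse, had 433, 247, 719.6 and 1124 CPM and rose (log2 fold change 1.38 ± 0.25 (SE), adjusted p = 0.00801). Ccl3, an inflammatory chemokine, had 293, 184, 70.1 and 118 CPM and fell (log2 fold change -1.44 ± 0.24 (SE), adjusted p = 0.00497). Ccl4 fell with it (log2 fold change -1.32 ± 0.23 (SE), adjusted p = 0.00752), from 925 and 616 CPM to 248 and 412. Cxcl2, a neutrophil attractant, had 1135, 843, 476 and 470.4 CPM and fell (log2 fold change -1.13 ± 0.19 (SE), adjusted p = 0.00505). Of the 10 listed CCL genes 2 rose and 2 fell, with a median log2 fold change of -0.49, against -0.0021 over all genes tested.

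Cxcl9 passed in 9 of 14 alternatives (adjusted p from 9.53e-12 to 0.9999), but not without LFD_WT (0.112, log2 fold change 1.11). Ccl4 passed in 9 of 14 alternatives (adjusted p from 5.21e-10 to 0.9999), but not without LFD_WT (0.103, log2 fold change -1.03). Cxcl2 passed in 11 of 14 alternatives (adjusted p from 7.83e-06 to 0.184), but not without LFD_WT (0.184, log2 fold change -0.95). None of these 3 passed in the fit without LFD_WT, where the direction was kept, and the highest p of Cxcl9 was DESeq2's, on a log2 fold change of 1.44. Ccl8 passed in 8 of 14 alternatives (adjusted p from 2.95e-11 to 0.9999), but not without LFD_shYap (0.202, log2 fold change 1.03) or with LFD_shYap counted as high-fat (0.858). Ccl3 passed in 10 of 14 alternatives (adjusted p from 1.96e-10 to 0.9999). Ccl5 passed in 13 of 14 alternatives (adjusted p from 1.01e-12 to 0.133). Ccl3 and Ccl5 passed in all 4 fits with 1 library left out. Neutrophil markers summed to 222, 365, 373 and 126 CPM in members, with no constant order by diet. Of the 4 tested for diet none passed, but none was positive either (median log2 fold change -0.47). Their part in the chemokine results was not tested. In HFD_shYap, Xist cells and Y-linked cells had 554 and 405 CPM of Cxcl9 and 141 and 335 CPM of Ccl5. With the Xist cells alone standing for HFD_shYap, Ccl5 did not pass (adjusted p = 0.133).

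Complement and interferon-gamma genes followed. C3, the central complement component, had 31.03, 42.6, 85.6 and 162 CPM and rose (log2 fold change 1.62 ± 0.19 (SE), adjusted p = 0.000174), the only 1 of 14 tested complement and Fc receptor genes to do so. C3 passed in 13 of 14 alternatives (adjusted p from 5.69e-16 to 0.0729), but not with LFD_shYap counted as high-fat (0.0729). Gbp2 had 60.96, 65.5, 114 and 128 CPM and rose (log2 fold change 0.86 ± 0.17 (SE), adjusted p = 0.0282). Gbp2 passed in 4 of 14 alternatives (adjusted p from 0.00162 to 0.656), but not without LFD_WT (0.656, log2 fold change 0.76) or without LFD_shYap (0.451, log2 fold change 0.94) or with LFD_shYap counted as high-fat (0.209). Of the 18 interferon-gamma targets tested, 2 rose, Gbp2 and Nos2, and none fell, where 0.268% of all genes tested rose. Nos2 entered the test only through the high-fat libraries, so the count cannot be read against that share. Of the 18, 17 had a positive log2 fold change (median 0.28), against 49.7% of all genes. In class II low macrophages 17 of 18 were positive as well (median 0.27), against 48.8% of all genes there, so this lean was not particular to the members. None of the 13 tested type I interferon genes passed, and 5 were positive. None of the 13 MHC class I presentation genes passed either, with 12 positive and a median of 0.27. In class II low macrophages all 13 were positive (median 0.25), so this lean was not particular to the members either.

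Class II genes did not pass within the members, where the gate fixes their minimum. Cd74 had 11645, 13330.1, 14115 and 13108 CPM (log2 fold change 0.05), Ciita 25.2, 26.9, 22.4 and 28.5 CPM (-0.12) and H2-DMb1 417, 439.7, 593 and 452 CPM (0.20).

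Of 7 tested genes of the arginine and immunometabolism list 4 rose and none fell, where 0.268% of all genes tested rose. Slc7a2 and Nos2 among them entered the test only through the high-fat libraries, so the count cannot be read against that share. Ass1, argininosuccinate synthase, had 6.21, 5.99, 29.3 and 20.2 CPM and rose (log2 fold change 1.93 ± 0.28 (SE), adjusted p = 0.00126). Ass1 passed in 12 of 14 alternatives (adjusted p from 7.77e-10 to 0.239). Slc7a2, a transporter of cationic amino acids, had 3, 0, 143 and 202 UMIs in LFD_WT, LFD_shYap, HFD_WT and HFD_shYap, in 3, 0, 66 and 52 cells, and rose (adjusted p = 0.000235). Nos2, the inducible nitric oxide synthase, had 3, 3, 117 and 72 UMIs in 2, 3, 60 and 17 cells and rose (adjusted p = 0.00505). Both were thus read from few cells, nearly all in the high-fat libraries, and passed the filter on low counts through those libraries. Slc7a2 passed in 11 of 13 alternatives (adjusted p from 9.03e-25 to 0.425), but not with LFD_shYap counted as high-fat (0.425). Nos2 passed in 9 of 13 alternatives (adjusted p from 2.89e-07 to 0.394), but not with LFD_shYap counted as high-fat (0.242). The arginase gene Arg1, which uses the same substrate as Nos2, had 161, 60.9, 287 and 341 CPM and rose (log2 fold change 1.55 ± 0.26 (SE), adjusted p = 0.00505). Arg1 passed in 7 of 14 alternatives (adjusted p from 1.08e-11 to 0.9999), but not without LFD_shYap (0.527, log2 fold change 0.91) or with LFD_shYap counted as high-fat (0.795). Within HFD_shYap, Nos2 had 13.7 and 1.43 CPM in Xist cells and Y-linked cells, Slc7a2 31.04 and 6.79 CPM and Arg1 430.1 and 247 CPM, so each was higher in the Xist cells.

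Idi1, the isopentenyl diphosphate isomerase of cholesterol synthesis, had 6.21, 4.66, 21.2 and 16.95 CPM and rose (log2 fold change 1.74 ± 0.28 (SE), adjusted p = 0.00497). Idi1 passed in 9 of 14 alternatives (adjusted p from 4.54e-07 to 0.33), but not with LFD_shYap counted as high-fat (0.0558). Idi1 was 7.45 and 26.8 CPM in Xist cells and Y-linked cells of HFD_shYap.

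Other genes that rose included Dnase1l3, a nuclease that digests the DNA of dead cells, with 6.57, 12.3, 51.5 and 34.5 CPM (log2 fold change 2.08 ± 0.29 (SE), adjusted p = 0.000969). Dnase1l3 passed in 13 of 14 alternatives (adjusted p from 6.01e-16 to 0.0535). Itgax had 32.9, 14.97, 70.1 and 45.5 CPM (log2 fold change 1.25 ± 0.20 (SE), adjusted p = 0.00373). Itgax passed in 7 of 14 alternatives (adjusted p from 7.77e-09 to 0.703), but not without LFD_shYap (0.703, log2 fold change 0.78) or without HFD_WT (0.106, log2 fold change 0.83) or with LFD_shYap counted as high-fat (0.131). Nrg1, a ligand of ERBB receptors, had 9.49, 11.97, 30.9 and 33.1 CPM (log2 fold change 1.5 ± 0.24 (SE), adjusted p = 0.00373). Nrg1 passed in 10 of 14 alternatives (adjusted p from 2.24e-07 to 0.357). Of the genes named here that rose with the diet, C3, Ccl5, Ccl8, Dnase1l3, Gbp2 and Itgax were also higher in members with Cxcl9 than without in every library. Arg1, Ass1, Idi1, Nos2, Nrg1 and Slc7a2 were not, though Nos2 and Slc7a2 were under the minimum of 100 UMIs. Of all genes measured, 9.33% were higher in every library.

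Among the genes that fell, 2 encode inhibitors of basic helix-loop-helix factors that answer to BMP and TGF-beta signals. Id3 had 84.7, 132, 15.3 and 40.2 CPM and fell (log2 fold change -2.16 ± 0.19 (SE), adjusted p = 9.20e-06). Id1 had 30.7, 28.3, 5.96 and 12.2 CPM and fell (log2 fold change -1.87 ± 0.26 (SE), adjusted p = 0.000956). Both high-fat libraries lay below both low-fat libraries for each. St3gal5, the sialyltransferase that makes the ganglioside GM3, had 26.6, 53.9, 7.33 and 11.7 CPM and fell (log2 fold change -2.11 ± 0.22 (SE), adjusted p = 7.20e-05). Id1 passed in 13 of 14 alternatives (adjusted p from 3.55e-12 to 0.0539). Id3 and St3gal5 passed in all 14 alternatives run for diet, with adjusted p up to 0.0116 and 0.0491.

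The apolipoprotein genes Apoc1 and Apoc4 fell as well. Apoc1 had 16.1, 33.6, 4.95 and 8.78 CPM (log2 fold change -1.9 ± 0.25 (SE), adjusted p = 0.000499), and Apoc4 10.6, 38.6, 3.16 and 5.55 CPM (log2 fold change -2.4 ± 0.30 (SE), adjusted p = 0.000338), with LFD_shYap highest for both. Apoc1 passed in 12 of 14 alternatives (adjusted p from 9.81e-13 to 0.125), but not with LFD_shYap counted as high-fat (0.125). Apoc4 passed in 11 of 14 alternatives (adjusted p from 6.21e-23 to 0.382), but not without LFD_shYap (0.213, log2 fold change -1.4) or with LFD_shYap counted as high-fat (0.382). Apoe, of the same gene cluster, had 41756, 53088, 28662 and 27776 CPM and did not pass (log2 fold change -0.82 ± 0.27 (SE), adjusted p = 0.518). Sult1a1, a sulfotransferase, had 42.7, 88.1, 12.1 and 46.2 CPM and fell (log2 fold change -1.42 ± 0.20 (SE), adjusted p = 0.00101). Sult1a1 passed in 10 of 14 alternatives (adjusted p from 1.21e-19 to 0.848), but not without LFD_shYap (0.848, log2 fold change -0.67) or without HFD_WT (0.501, log2 fold change -0.62).

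The anti-inflammatory cytokine gene Il10 had 21.2, 26.3, 10.7 and 13.7 CPM and fell (log2 fold change -1.04 ± 0.23 (SE), adjusted p = 0.0473), the only 1 of 12 tested cytokines to pass. Il10 passed in 3 of 14 alternatives (adjusted p from 0.0036 to 0.9999), but not without LFD_shYap (0.527, log2 fold change -0.86) or without HFD_WT (0.237, log2 fold change -0.90) or with LFD_shYap counted as high-fat (0.335). Jun, a subunit of the AP-1 factor, had 293, 294, 122 and 182 CPM and fell (log2 fold change -1.06 ± 0.18 (SE), adjusted p = 0.00729). Jun passed in 8 of 14 alternatives (adjusted p from 1.14e-05 to 0.22), but not without LFD_WT (0.0707, log2 fold change -1.08) or without LFD_shYap (0.184, log2 fold change -1.0) or without HFD_WT (0.09, log2 fold change -0.80). It was the only called gene of 12 stress and immediate early genes, whose median was -0.30. These genes respond to tissue dissociation, and their part in the diet results was not tested.

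**Figure D4:**
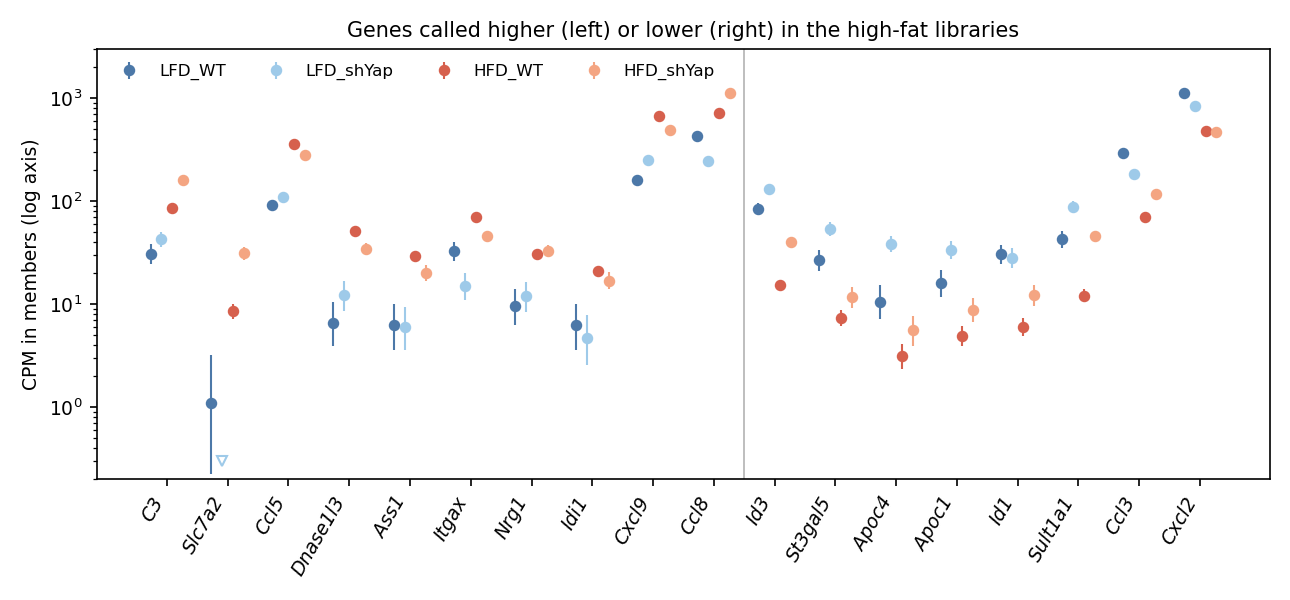
CPM of 10 genes that rose and 8 that fell with the high-fat diet in the members' summed UMIs, 1 point a library with its exact Poisson 95% interval (log axis); an open triangle marks 0 UMIs. For Id3 and Id1 both high-fat libraries lie below both low-fat libraries, and for Cxcl9, C3 and Ccl5 above.

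**Figure D5:**
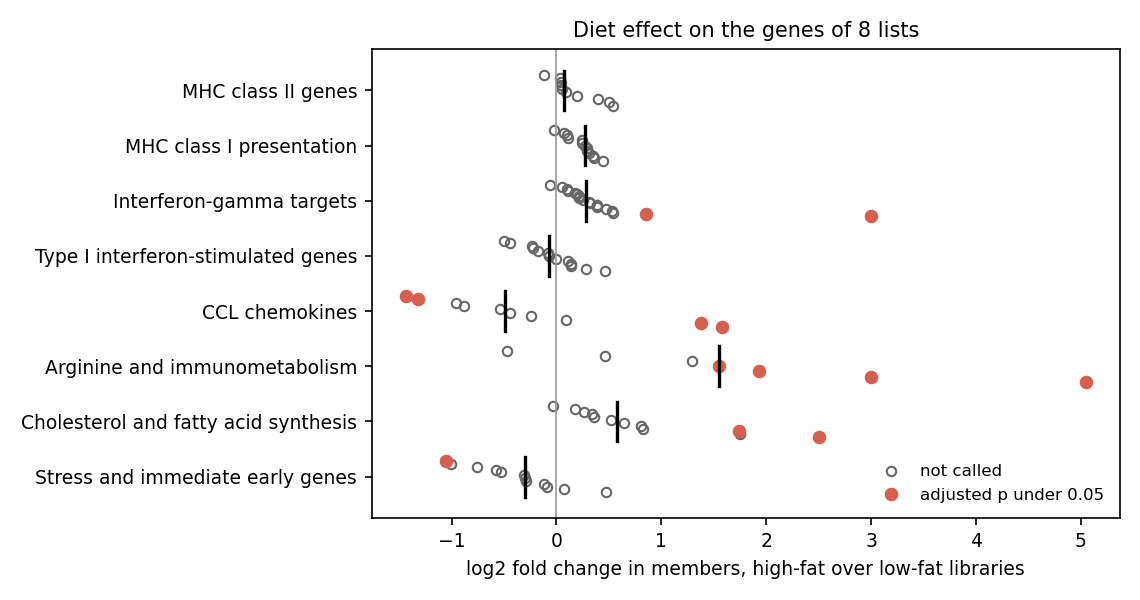
Diet log2 fold change in members (x axis) for each tested gene of 8 lists; filled points passed an adjusted p of 0.05 and black bars are list medians. The arginine and immunometabolism list holds 4 calls, Slc7a2 and Nos2 among them, and the class II genes none.

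The tumour line was tested in the same fit, shYap over WT with both diets. Of 10075 genes, 17 rose (0.169%) and 8 fell (0.0794%), and 746 had an unadjusted p under 0.05. Of the 25, 1 passed in all 4 fits with 1 library left out, and 1 with the tumour line alone in the model. With the Y-linked cells alone standing for HFD_shYap 7 genes were called, and with the Xist cells alone 48. DESeq2 called 14, of which 12 were shared.

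Cxcl13, the chemokine that attracts B cells through CXCR5, had the lowest p. It had 0.73, 33.6, 1.55 and 18.95 CPM (log2 fold change 3.95 ± 0.34 (SE), adjusted p = 4.76e-06). The 252 UMIs came from 16 cells, 2, 5, 3 and 6 in LFD_WT, LFD_shYap, HFD_WT and HFD_shYap. In HFD_shYap, 121 of the 123 UMIs were in Xist cells and 0 in Y-linked cells. With its low WT levels, the gene passed the filter on low counts through the shYap libraries. The alternatives that tested it were 13 of the 14. With Y-linked cells alone, HFD_shYap would hold 0 UMIs of it. Most alternatives reuse the same few cells, so passing them does not show that the call holds in other cells. Cxcl13 passed in 13 of 13 alternatives (adjusted p from 4.59e-35 to 0.0338).

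Fkbp5, a co-chaperone of steroid receptors, was higher with the shYap line, at 51.1, 148, 21.9 and 111 CPM (log2 fold change 1.96 ± 0.20 (SE), adjusted p = 2.98e-05). The transcription factor Zbtb16 had 4.75, 19.96, 2.03 and 14.3 CPM and rose (log2 fold change 2.52 ± 0.30 (SE), adjusted p = 0.00032). Klf9 had 18.3, 47.6, 8.88 and 27.6 CPM and rose (log2 fold change 1.51 ± 0.21 (SE), adjusted p = 0.00116). In all 3, each shYap library lay above each WT library, and LFD_shYap was highest. Vcam1, an adhesion molecule for leukocytes, had 327, 712, 249.7 and 574 CPM and rose (log2 fold change 1.16 ± 0.18 (SE), adjusted p = 0.00354). Fkbp5 passed in 11 of 14 alternatives (adjusted p from 4.37e-19 to 0.814), but not without LFD_shYap (0.814, log2 fold change 1.64) or without HFD_shYap (0.285, log2 fold change 2.2). Zbtb16 passed in 9 of 14 alternatives (adjusted p from 7.72e-14 to 0.639), but not without LFD_shYap (0.639, log2 fold change 2.33) or without HFD_shYap (0.205, log2 fold change 2.96). Neither passed where 1 library stood for the shYap line. Klf9 passed in 9 of 14 alternatives (adjusted p from 7.89e-09 to 0.814), but not without LFD_shYap (0.814, log2 fold change 1.13) or without HFD_WT (0.235, log2 fold change 1.0) or without HFD_shYap (0.272, log2 fold change 2.06). Vcam1 passed in 7 of 14 alternatives (adjusted p from 2.84e-06 to 0.782), but not without LFD_shYap (0.782, log2 fold change 0.92) or without HFD_WT (0.109, log2 fold change 0.97) or without HFD_shYap (0.175, log2 fold change 1.37). Within HFD_shYap, Xist cells and Y-linked cells had 149.8 and 90.7 CPM of Fkbp5, 28.1 and 6.79 CPM of Zbtb16, 45.5 and 13.9 CPM of Klf9 and 856 and 409 CPM of Vcam1, so the Xist cells were higher for each.

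Cxcl10, the interferon-induced CXCR3 ligand, was lower with the shYap line, at 218, 80.8, 175 and 84.3 CPM (log2 fold change -1.24 ± 0.18 (SE), adjusted p = 0.00148). Cxcl9, the other CXCR3 ligand, did not pass for line (log2 fold change 0.05 ± 0.23 (SE), adjusted p = 0.97). Ifitm1, an interferon-induced membrane protein gene, had 149, 35.3, 131 and 64.3 CPM and fell (log2 fold change -1.51 ± 0.21 (SE), adjusted p = 0.00116), and the protease inhibitor Slpi 19.3, 5.99, 39.8 and 8.01 CPM (log2 fold change -2.12 ± 0.26 (SE), adjusted p = 0.00032). None of the 13 type I interferon genes passed and 1 was positive (median -0.24). In HFD_shYap, Cxcl10 was 33.5 and 127 CPM in Xist cells and Y-linked cells, Ifitm1 35.6 and 87.9 CPM and Slpi 7.04 and 11.4 CPM. Cxcl10 passed in 8 of 14 alternatives (adjusted p from 2.22e-07 to 0.394), but not without LFD_shYap (0.394, log2 fold change -1.29) or without HFD_shYap (0.285, log2 fold change -1.21). Ifitm1 passed in 9 of 14 alternatives (adjusted p from 4.26e-11 to 0.394), but not without LFD_shYap (0.394, log2 fold change -1.19) or without HFD_shYap (0.0738, log2 fold change -1.92). Slpi passed in 8 of 14 alternatives (adjusted p from 1.44e-13 to 0.823), but not without LFD_shYap (0.717, log2 fold change -2.04) or without HFD_shYap (0.473, log2 fold change -2.32).

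The diet effect was tested against that in the class II low macrophages of the same libraries. Of 12568 genes, 7 had a higher diet effect in members (0.0557%) and 12 a lower one (0.0955%), with 801 at an unadjusted p under 0.05. The gate genes H2-Aa, H2-Ab1 and H2-Eb1, and Cd74 with them, were among the latter (the gates limit the first 3 from below in members and from above in the class II low cells). Cxcl9 was not among them: its diet effects differed by -0.08 on the log2 scale (adjusted p = 0.95). Nor were Id3 (-0.51, adjusted p = 0.177), C3 (0.51, 0.568) and Ccl5 (0.83, 0.0533).

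St3gal5 fell further in members than in the class II low cells (difference -1.26 ± 0.16, adjusted p = 0.00157), where it had 34.4, 59.2, 19.4 and 35.9 CPM. Arg1 rose further in members (1.08 ± 0.18, adjusted p = 0.0129), though its level stayed below that of the class II low cells in each library, which had 501, 402, 607 and 700.3 CPM. Slc7a2 had a higher diet effect in members as well (3.91 ± 0.60, adjusted p = 0.00652). It was almost absent from the low-fat members, as given above, so the size of this difference is uncertain. Alternatives moved the count of 19 to between 38 and 116. Of the 49 genes called for diet in members and the 26 called in class II low macrophages, 11 were called in both.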

How the data were processed

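Single-cell RNA was counted in 4 libraries of bead-selected CD45 leukocytes. Each deposited matrix gives whole-number UMI counts of a gene in a barcode, not normalized. The authors made them with Cell Ranger 6.0.0 by the file headers, while Cell Ranger 4.0.0, STAR 2.5.1 and mm10 stand in the submitters' processing notes. Libraries were 3′ 10x v3.1, per the labels' protocols. The cell type markers, the 22 gene lists and the members were chosen with earlier results of these data known. Groups came from the sample titles.

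UMIs were summed over members per library. Diet and tumour line were tested with edgeR 4.0.16 (R 4.3.3, quasi-likelihood test, TMM, filterByExpr, additive model, 1 residual degree of freedom, Benjamini-Hochberg at 0.05 over all genes tested). SE is the absolute log2 fold change over the square root of F. Alternatives were DESeq2 1.42.0, RLE scaling, no filter, each factor alone, other gate thresholds, thinning to 3000 UMIs, removal of high doublet scores, the other diet label of LFD_shYap, 1 sex-linked class of HFD_shYap, and each library left out together with the other factor. On simulated counts for diet in members over 10063 genes, 61.1% of changes of log2 1 and 95.9% of log2 2 were recovered with 6 false calls. For the difference of diet effects over 12567 genes these were 20.00% and 82.00%, with 2 false calls. The simulation gave all genes the same preset dispersion, which was not estimated from these libraries, and changed only genes above a minimum count. It drew members and class II low cells independently. These rates therefore need not hold for the real libraries.

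Ratios between gates raised counts under 3 to 3. Intervals cover counting error only. Doublets were scored with Scrublet, whose automatic threshold marked 0, 0, 1 and 0 cells and so had not worked. Cells with the highest scores were removed as an alternative only. Named genes were the gate and marker genes, the 8 called genes of lowest p per direction for diet and line, list members, and the 10 genes of widest ratio per comparison of gates and of Cxcl9 cells. Genes called outside that rule are named where a list or a count led to them. Promoters came from RefSeq. Some items are not reported here.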

Additional observations from a re-analysis of the deposited data

Results flagged for a closer look

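The diet effect differed between members and class II low macrophages for 16 genes besides the gate genes, by edgeR's test of the difference itself (log2, members minus class II low, adjusted p under 0.05; 4 values in a row stand for LFD_WT, LFD_shYap, HFD_WT and HFD_shYap). It was higher in members for Slc7a2 (3.91), Cxcl13 (3.5), Ly6c2 (2.87), Chil3 (2.24), Saa3 (1.18), Arg1 (1.08) and Irf7 (0.55). For Ly6c2, a monocyte gene, members had 24.1, 28.6, 45.3 and 67.5 CPM and class II low macrophages 35.4, 89.5, 25.7 and 13.02 CPM; both high-fat libraries lay above both low-fat ones in members and below them in the others. Chil3, another monocyte gene, had 37.6, 96.5, 62.7 and 78.4 CPM in members and 180.0, 289.7, 105 and 34.4 CPM in class II low macrophages. Monocyte markers in all summed to 510.2 to 765 CPM in members and 792 to 1295 CPM in class II low macrophages, and their part in these results was not tested. The Cxcl13 value rests on 252 UMIs in 16 members. The Slc7a2 value rests on low-fat members with almost no UMIs of it, so its size is uncertain.

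The diet effect was lower in members for Apoc1 (-1.38), St3gal5 (-1.26), Phlda1 (-0.92), Cd74 (-0.88), Ptgs2 (-0.76), Nfil3 (-0.63), Pim1 (-0.60), Gpr35 (-0.59) and Fosb (-0.56). Cd74 is expressed with the gate genes. Ptgs2, the inducible cyclooxygenase, had 84.3, 76.2, 90.02 and 97.5 CPM in members and 41.7, 32.8, 72.5 and 75.9 CPM in class II low macrophages, where the high-fat libraries were higher.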

How the results depend on the processing

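No paired analysis was possible because each combination of diet and tumour line had 1 library, so groups share only 1 replicate number. The diet test is adjusted for tumour line, and the fits without that term are given as the factor alone. The share gained by HFD_WT over LFD_WT was 27.2 points with class II at 0.4% or more, 12.6 at 1.6%, 26.4 with C1q at 2%, 26.6 with cells thinned to 3000 UMIs and 28.4 without the limits on absolute UMIs. For HFD_shYap over LFD_shYap these were 14.3, 5.67, 30.7, 13.6 and 13.7. HFD_shYap minus HFD_WT was -13.1 at 0.4% and -6.35 at 1.6%, and turned to 0.726 with C1q at 2%. LFD_shYap minus LFD_WT was -3.58 with C1q at 2%, 1.17 when thinned and 2.32 without the absolute limits.

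Genes called for diet and for line, 49 and 25, became 13 and 14 with DESeq2, 13 and 9 with RLE, 99 and 102 without the filter, 76 and 110 under the treatment field's diet, 26 and 1 with the factor alone, 14 and 14 with class II at 1.6%, 13 and 7 when thinned, and 19 and 9 without high doublet scores. With Xist cells alone in HFD_shYap they were 30 and 48, and with Y-linked cells alone the line calls were 7. Leaving out 1 library, which also drops the other factor since 3 libraries leave no residual degree of freedom with both, gave 56 to 154 genes for diet and 4 to 49 for line, the highest diet count without HFD_shYap (62 up, 92 down) and the lowest line count without it (3 up, 1 down). Genes whose diet effect differed between gates, 19, became 41 with class II at 1.6%, 48 with RLE, 38 under the treatment field, 116 without high doublet scores and 78 without the filter. Genes 2-fold apart from class II low macrophages, 36, became 64 with class II at 1.6% and 22 at 50 CPM or more, and from C1q-low cells, 767, became 462 at 50 CPM or more. The cause of these changes was not tested.

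In the fits without 1 library, where library and model changed together, signs turned for Fkbp5 in the diet test (-2.24 to 0.28; positive without HFD_WT, 0.03, or LFD_shYap), Mrap in the diet test (-4.08 to 1.0; positive without LFD_shYap) and Id3 in the line test (-0.23 to 2.48; negative without LFD_shYap). For Saa3 between gates the sign turned with class II at 1.6% (-0.15). Other gene calls kept their direction, and 304 of 680 diet values, 190 of 348 line values and 13 of 95 between-gate values were no longer past the threshold. Depth was lowest in the low-fat libraries, with 395 and 341 members.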
